A study of Mus musculus with 8 samples.

Results

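The genes described here are 9 markers of pulmonary neuroendocrine cells, measured in type I (AECI) and type II (AECII) alveolar epithelial cells sorted from embryonic mouse lungs. They were chosen by name, as Calca, Chga, Chgb, Scg5, Syp, Uchl1, Ddc, Pcsk1 and Resp18, and matched by gene symbol to the annotated spots of the array. All 9 were found, with 21 spots among the 43884 named spots and 9 of the 24568 named genes. AECI are the flat cells of gas exchange, and AECII are the cuboidal cells that make surfactant. The 4 groups were Mutant AECI, WT AECI, Mutant AECII and WT AECII, with 2 arrays each, named by the submitters as biological replicates. Mutant stands for lungs with Fgfr2b signalling inhibited in vivo between embryonic day (E) 16.5 and E18.5, and Fgfr2b is the splice form of an FGF (fibroblast growth factor) receptor that epithelial cells make. The sources used here do not give the alleles, the agent that inhibited the signalling, the strain, the sort markers, the pooling of embryos or the genotype of the WT lungs. Nothing says how far the 2 arrays of a group share an embryo or litter, so the p-values measure the spread between these arrays.

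Pulmonary neuroendocrine cells are rare airway cells, single or clustered at branch points, that sense the airway and release peptides and amines from dense-core granules. Their peptides are made as precursors, packed with granins, cut by prohormone convertases inside the granule and released by regulated exocytosis. They belong to the conducting airway and not to the alveolus, so the sort for AECI and AECII was not aimed at them. The 9 genes cover these steps. Calca gives the neuropeptide CGRP and the hormone calcitonin from 1 gene by alternative splicing. Chga and Chgb are the granins of the granule core, Scg5 (7B2) is the chaperone of the convertase PC2, Pcsk1 is the convertase PC1/3, and Resp18 is an endocrine protein of the secretory pathway. Ddc is the decarboxylase that makes dopamine and serotonin. Syp is synaptophysin, a vesicle membrane protein, and Uchl1 (PGP9.5) is a ubiquitin hydrolase abundant in neurons and neuroendocrine cells.

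Values are log2 signals as normalized by the authors. Every array had a median of 5.01 over its spots. The 25th percentile was 3.3 and the 75th was 8.06 (each the median over the arrays), and the table ran from 2.27 to 15.99. No source used here gives detection limits, so a dim spot is described by its place among the spots of its own array and not as present or absent. In bulk samples, fewer cells of a type and less RNA per cell cannot be told apart. The markers followed the sort labels: of 8 AECI markers 7 were higher in AECI, and of 8 AECII markers 7 were lower there (limma, averaged over genotypes), against 5.8% of all genes called higher and 9.01% called lower. Airway markers differed between the populations too. The mean of 8 club cell genes was 8.30 to 9.17 in AECI and 11.26 to 11.75 in AECII, and that of 8 ciliated cell genes was 5.47 to 6.75 in AECI and 9.37 to 10.36 in AECII. Xist, the X-inactivation RNA of female cells, was 3.50 to 5.14 on the 4 Mutant arrays and 12.44 to 13.17 on the 4 WT arrays. The Y-linked Uty was 6.71 to 7.47 on the Mutant arrays and 2.72 to 3.24 on the WT arrays, and the Y-linked Eif2s3y was 10.46 to 11.05 on the Mutant arrays and 3.67 to 5.86 on the WT arrays. Kdm5d, the other Y-linked gene measured, was 12.17 to 12.75 on the Mutant arrays and 11.95 to 12.62 on the WT arrays and did not follow them (0.13 averaged, limma, adjusted p = 0.896). Whether the Kdm5d spot reads a Y-specific signal is not known here. By Xist, Uty and Eif2s3y, the Mutant arrays read as male and the WT arrays as female. Genotype and sex, as read from these transcripts, cannot be told apart in any comparison of Mutant with WT. Fgfr2 was 10.17 to 12.40 on the Mutant arrays and 10.38 to 12.16 on the WT arrays, with an averaged difference of -0.07 (limma, adjusted p = 0.942). Whether its spot reads the Fgfr2b form is not known here. Etv5, the other fixed FGF gene, had means of 10.14 in Mutant AECI and 10.78 in WT AECI. In AECII its means were 12.44 in Mutant and 12.10 in WT, and neither difference passed (limma). How far FGF signalling was lowered in these cells was not tested.

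Most of the 9 genes were dim or lay near the array median. Taking the brightest spot of each gene, 4 of the 9 genes (Chga, Uchl1, Pcsk1 and Resp18) lay below the array median on all 8 arrays. Chgb was above it on 1 array, Calca on 2, Scg5 on 4, and Syp and Ddc on all 8. Of 12 measured transcription factors and Notch ligands of the neuroendocrine lineage, 6 were below the median on all 8 arrays. Among them, Insm1, a zinc finger factor required for neuroendocrine differentiation, ran from 2.36 to 4.28, and Neurod1, a proneural factor, from 2.60 to 4.65. The share of all genes below the median on all 8 arrays was not computed, so these counts are not set against a background. The genes are named below as 9 marker genes, without a claim that neuroendocrine cells were in the sort or missing from it.

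Sequences upstream of the genes are shown first where they frame the measurements. Ddc gave the brightest and the most unequal signals, and RefSeq (GRCm38.p6) annotates 2 starts for it, 7736 bases apart on chromosome 11, within the gene at chr11:11814101-11898144. The 150 bases before each start are printed 5′ to 3′ on the gene's strand, with the 30 bases next to the start in capitals.

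Ddc, outer start chr11:11898145-11898294 (- strand): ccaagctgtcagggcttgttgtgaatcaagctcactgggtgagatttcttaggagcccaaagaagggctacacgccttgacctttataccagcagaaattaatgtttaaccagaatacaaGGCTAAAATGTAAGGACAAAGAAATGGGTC
Ddc, inner start chr11:11890409-11890558 (- strand): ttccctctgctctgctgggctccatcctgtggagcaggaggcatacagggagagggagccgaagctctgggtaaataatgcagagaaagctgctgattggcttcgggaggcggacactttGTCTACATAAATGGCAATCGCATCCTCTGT

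Promoters of granin and neuropeptide genes are known for the cAMP response element, the palindrome TGACGTCA or its part TGACG. These letters were searched on both strands in the window from 250 bases before to 50 after each start. TGACGTCA was in 1.8% and TGACG in 20.8% of all 32851 RefSeq promoter windows. It was searched in 10 windows of the 9 genes (Ddc has 2), and TGACG was in 5 of them: Chgb and Pcsk1 as part of the full palindrome, and Calca, Chga and Scg5. The stretches before the start are printed with the matched letters in capitals. They are shown because these 5 genes share the letters, and their signals, given below, did not share a pattern.

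Calca chr7:114636403-114636437 (- strand): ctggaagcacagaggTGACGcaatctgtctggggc
Chga chr12:102554882-102554916 (+ strand): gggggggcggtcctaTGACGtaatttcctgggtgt
Chgb chr2:132781555-132781592 (+ strand): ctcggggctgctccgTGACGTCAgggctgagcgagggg
Pcsk1 chr13:75089764-75089826 (+ strand): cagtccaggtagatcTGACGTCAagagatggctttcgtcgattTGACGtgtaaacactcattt
Scg5 chr2:113829247-113829281 (- strand): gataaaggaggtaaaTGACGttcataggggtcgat

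In Pcsk1 the palindrome began 78 bases before the start, with a further TGACG at 50, and in Chgb it began 72 bases before. The windows of Ddc, Resp18, Syp and Uchl1 did not hold TGACG. The E-box CAGCTG was in the windows of 4 genes (Resp18, Chgb, Calca and Chga) and in 16.3% of all windows, and CAGGTG was in 3 (Scg5, Chgb and Chga) and in 20.2%. Neither of the 2 parts of the RE1 element that were searched, TTCAGCACC and GGACAGCGC, was in any window of the 9 genes, against 0.37% and 0.4% of all windows. RE1 is bound by REST, a repressor of neuronal genes. A match is a description of these letters and not of a bound factor.

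Ddc was the 1 marker gene with a high signal, and it was higher in AECI. Its brightest spot read 12.97 and 12.93 in Mutant AECI, 12.44 and 12.66 in WT AECI, 9.50 and 9.08 in Mutant AECII and 9.02 and 8.37 in WT AECII. The 4 AECI arrays lay above all 4 AECII arrays, with means of 12.75 ± 0.25 in AECI and 8.99 ± 0.47 in AECII (SD, n = 4 each, both genotypes). On the 8 arrays it lay between percentiles 77.0 and 96.2 of the spots. The difference, AECI minus AECII, was 3.66 in Mutant (95% CI 2.91 to 4.41, limma, adjusted p = 0.0018) and 3.86 in WT (3.11 to 4.61, adjusted p = 0.00186). Averaged over the genotypes it was 3.76 ± 0.22 (SE, 95% CI 3.23 to 4.29, adjusted p = 0.000198), which is 13.5-fold. The difference between the genotypes in this contrast was -0.20 (CI -1.26 to 0.86, adjusted p = 0.999).

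A second Ddc spot did not show this. It read 5.47 and 4.06 in Mutant AECI, 4.52 and 4.25 in WT AECI, 3.79 and 5.65 in Mutant AECII and 5.34 and 5.20 in WT AECII. The 4 groups overlapped, and the averaged AECI minus AECII difference was -0.42 (CI -1.55 to 0.71, limma over all spots, adjusted p = 0.653). The bright spot is annotated to the transcript NM_001190448 and the other to NM_016672. Where on the transcripts the spots lie is not known here, so the 2 spots were not assigned to the 2 starts above. With the mean of both spots, the averaged difference was 1.67 (adjusted p = 0.00486), that in Mutant 1.85 (0.023) and that in WT 1.49 (0.0548, which did not pass).

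**Figure D1:**
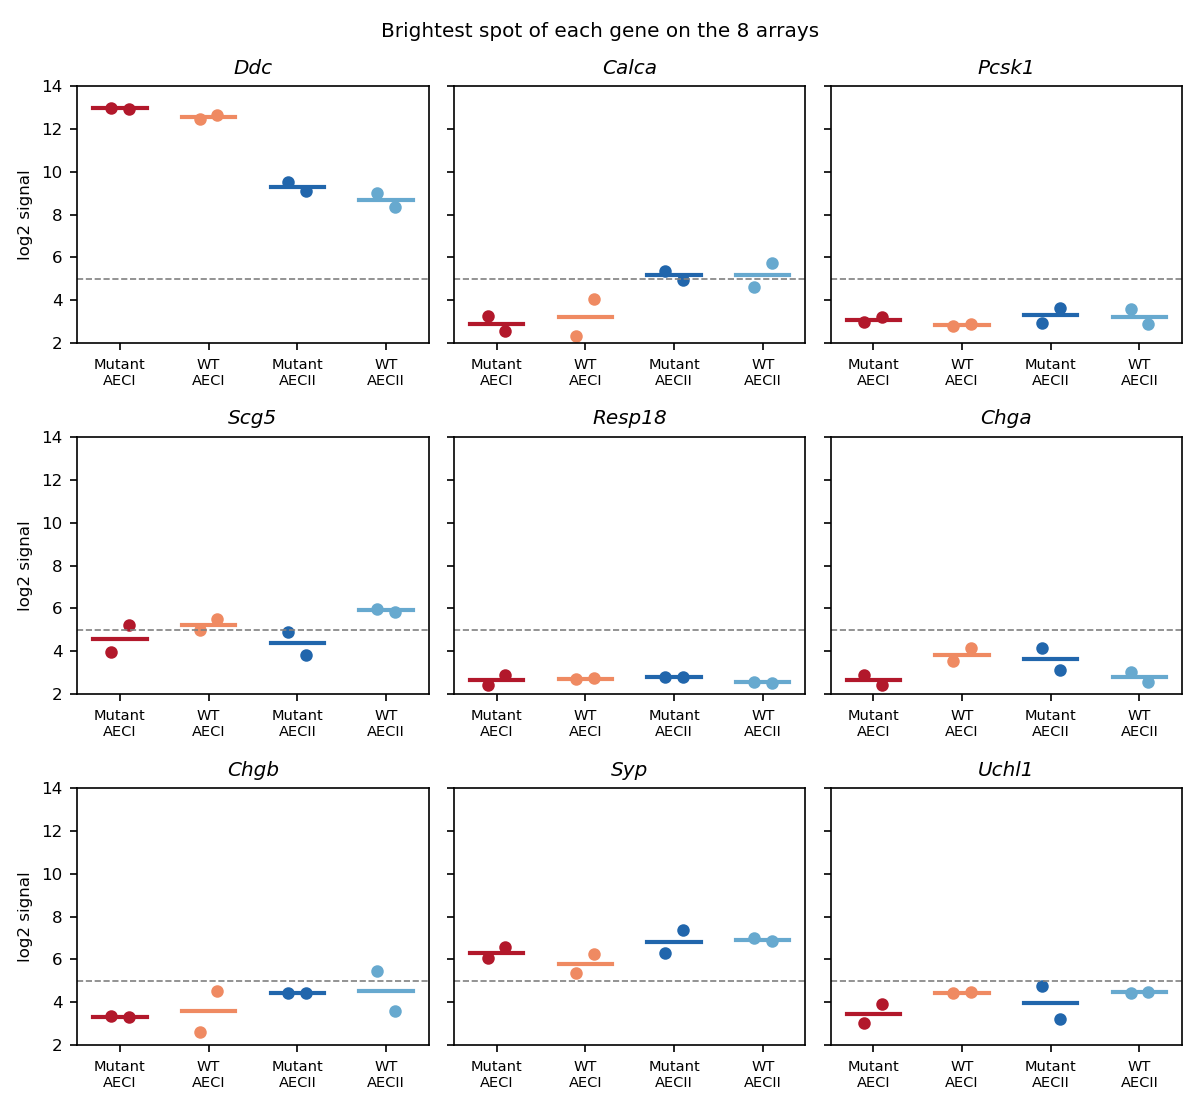
Log2 signal (vertical axis) of the brightest spot of each of the 9 genes in the 4 groups, with points for the 2 arrays of a group, a bar for their mean and a dashed line at the array median of 5.01. Ddc lies at 12.44 to 12.97 in AECI and 8.37 to 9.50 in AECII, and Chga, Uchl1, Pcsk1 and Resp18 stay below the line on every array.

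Calca, a widely used marker of these cells in the mouse, was dim and lower in AECI. Its brighter spot read 3.26 and 2.54 in Mutant AECI, 2.34 and 4.06 in WT AECI, 5.36 and 4.95 in Mutant AECII and 4.63 and 5.74 in WT AECII. All 4 AECI arrays lay below all 4 AECII arrays, with means of 3.05 ± 0.78 in AECI and 5.17 ± 0.48 in AECII (SD, n = 4 each), and the AECII values lay near the array median. Of the 4 AECI values, 3 lay below the 25th percentile of 3.3. No detection limit is known, so these values may hold background, and the size of the difference may be understated. Averaged over the genotypes, AECI minus AECII was -2.12 ± 0.45 (SE, 95% CI -3.19 to -1.05, limma, adjusted p = 0.0225). The difference was -2.26 in Mutant (CI -3.77 to -0.74, adjusted p = 0.0896) and -1.98 in WT (CI -3.49 to -0.47, adjusted p = 0.134), and neither passed the threshold alone. The averaged call was lost without Mutant AECI replicate 2 (adjusted p = 0.0694), Mutant AECII replicate 1 (0.079), Mutant AECII replicate 2 (0.0614) or WT AECII replicate 2 (0.0772).

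The second Calca spot read 3.37 and 3.61 in Mutant AECI, 2.78 and 2.76 in WT AECI, 3.66 and 4.01 in Mutant AECII and 2.98 and 3.48 in WT AECII. Its AECI minus AECII difference was -0.40 (CI -0.90 to 0.10, limma over all spots, adjusted p = 0.292). In this spot the Mutant arrays lay above the WT arrays within each population, with an averaged difference of 0.66 (CI 0.16 to 1.17, unadjusted p = 0.0166, adjusted p = 0.611). The brighter spot is annotated to NM_001033954 and the other to NM_007587, and which of the calcitonin and CGRP forms each reads was not tested. Of 8 club cell genes, 4 were called lower in AECI, against 9.01% of all genes, and 2 had a positive difference that did not pass. Of 8 ciliated cell genes 7 were called lower, as were 7 of 8 AECII markers. Among the club cell genes called lower, the secretoglobin Scgb1a1 was 7.67 to 9.62 in AECI and 15.75 to 15.92 in AECII. Scgb3a2, called lower too, was 8.79 to 9.43 in AECI and 14.41 to 14.87 in AECII. Of 9 autonomic nerve and Schwann cell genes, 1 was lower in AECI (S100b, -1.53, adjusted p = 0.0131, lost without Mutant AECII replicate 1 at 0.0513). With 9.01% of all genes called lower, 1 of 9 nerve genes lay near that share. The part of airway or nerve RNA in the Calca difference was not tested.

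In each genotype, 1 of the 9 genes (Ddc) passed the test between AECI and AECII, and with the genotypes averaged 2 passed, Ddc as higher and Calca as lower in AECI. Over all genes, 2.93% were called higher and 4.87% lower in AECI within Mutant, 2.87% higher and 4.14% lower within WT, and 5.8% higher and 9.01% lower with the genotypes averaged. Centring each array on its median gene gave a median averaged difference of all genes of 0.15, against 0.01 without centring, and turned 1425 higher and 2213 lower genes (averaged) into 1871 higher and 1798 lower, and 720 higher and 1197 lower (Mutant) into 928 higher and 988 lower. Ddc and Calca kept their calls and directions under it. With 9 genes and a background in which many genes differed, a count of 1 or 2 called thus says little of the 9 genes as a list. The median of the 9 averaged differences was -0.26, against 0.01 over all genes. At an unadjusted p under 0.05 the averaged contrast held 3 of the 9 genes (Ddc, Calca and Syp), against 27.6% of all genes.

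Syp, the vesicle protein, was above the array median on every array. It read 6.04 and 6.58 in Mutant AECI, 5.36 and 6.23 in WT AECI, 6.30 and 7.36 in Mutant AECII and 7.0 and 6.84 in WT AECII. AECI overlapped AECII through Mutant AECII replicate 1. The averaged AECI minus AECII difference was -0.82 (CI -1.60 to -0.04, limma, unadjusted p = 0.0413, adjusted p = 0.161) and did not pass. Syp lies on the X chromosome, chrX:7638580-7653256, and its averaged Mutant minus WT difference was 0.22 (CI -0.56 to 0.99, adjusted p = 0.891).

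The granins Chga and Chgb were dim. Chgb is printed on the array as 10 spots with 1 accession, which gives a view of the spread of a dim gene. The mean of the 10 spots was 2.99 and 3.10 in Mutant AECI, 3.16 and 3.95 in WT AECI, 4.18 and 4.11 in Mutant AECII and 4.04 and 3.64 in WT AECII. The SD among the 10 spots of 1 array was 0.30 to 0.72, so single spots overlapped between the populations. The brightest spot gave an averaged AECI minus AECII difference of -1.01 (CI -2.27 to 0.24, limma, adjusted p = 0.273), and the mean of the spots gave an adjusted p of 0.0931. The 10 spots fitted singly gave differences from -1.37 to -0.35, and no spot passed. The spots share 1 RNA sample per array and are not replicates.

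**Figure D2:**
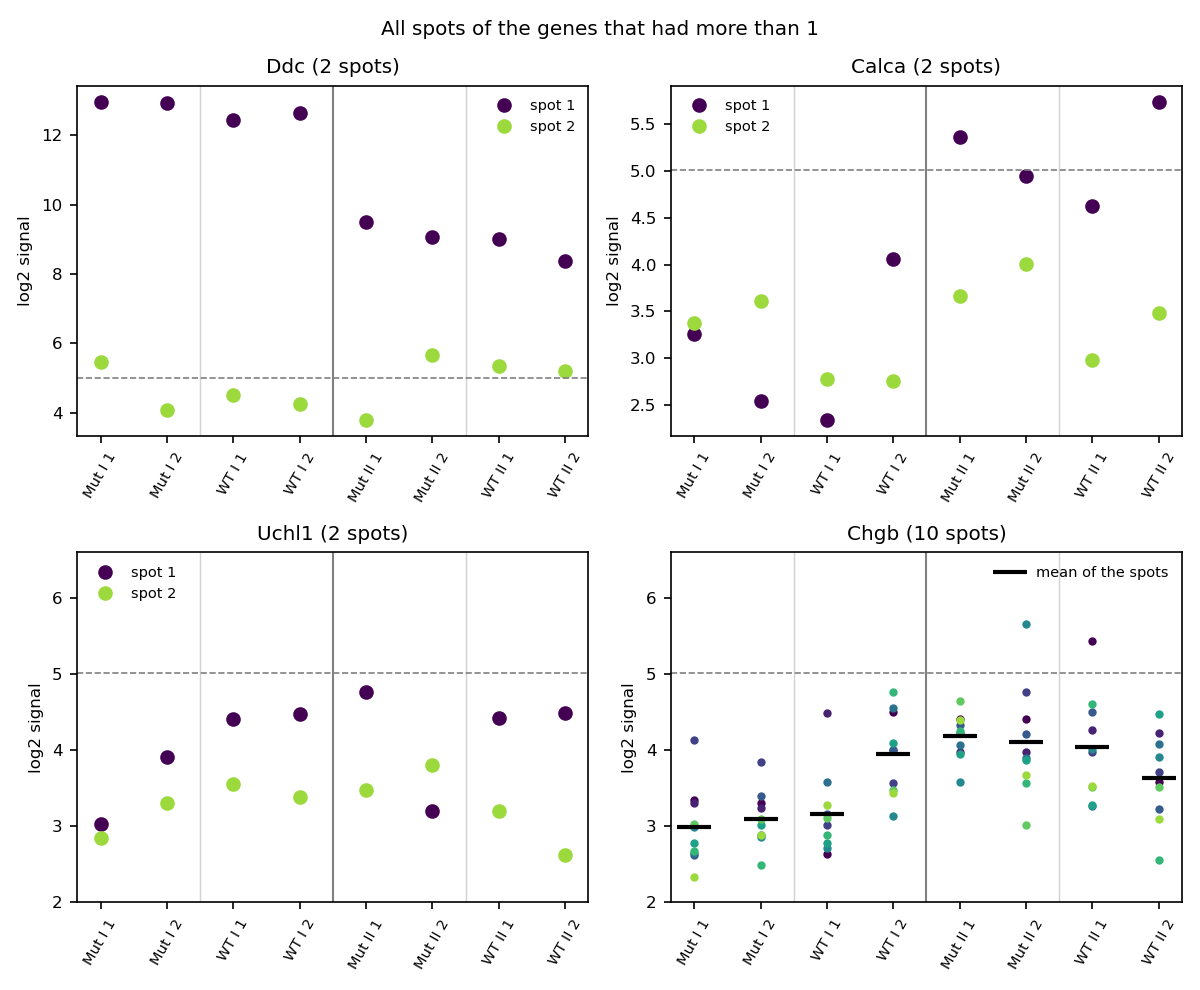
Log2 signal (vertical axes, each with its own range) of all spots of the 4 genes with more than 1 spot on the 8 arrays (Mut I and WT I are AECI, Mut II and WT II are AECII), with the array median of 5.01 dashed and a bar for the mean of the 10 Chgb spots. Spot 1 of Ddc is at 8.37 to 12.97 and spot 2 at 3.79 to 5.65, and the Chgb means run from 2.99 to 4.18.

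Chga read 2.88 and 2.44 in Mutant AECI, 3.53 and 4.15 in WT AECI, 4.14 and 3.14 in Mutant AECII and 3.02 and 2.57 in WT AECII. The Mutant arrays lay below the WT arrays in AECI and above them in AECII. Mutant minus WT was -1.17 in AECI (CI -2.19 to -0.16, limma, adjusted p = 0.601) and 0.84 in AECII (CI -0.18 to 1.86, adjusted p = 0.998). The difference of these 2 effects was -2.02 (CI -3.45 to -0.58, unadjusted p = 0.0129, adjusted p = 0.999) and did not pass over all genes. Over the 2 populations the effects cancelled, to -0.17 (CI -0.89 to 0.55).

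Of the genes of peptide processing, Scg5, the PC2 chaperone, gave the clearest separation in the Mutant arrays. It lay near the array median and read 3.97 and 5.21 in Mutant AECI, 4.97 and 5.52 in WT AECI, 4.91 and 3.82 in Mutant AECII and 5.95 and 5.85 in WT AECII. In AECII both Mutant arrays were below both WT arrays, with means of 4.36 ± 0.77 in Mutant and 5.90 ± 0.07 in WT (SD, n = 2 each), while in AECI the groups overlapped. The Mutant minus WT difference was -0.65 in AECI (CI -1.90 to 0.59, limma, adjusted p = 0.815), -1.53 in AECII (CI -2.78 to -0.29, adjusted p = 0.998) and -1.09 averaged (CI -1.97 to -0.22, unadjusted p = 0.0217, adjusted p = 0.618). None of these passed. Pcsk1 stayed between 2.78 and 3.64 and Resp18 between 2.43 and 2.89 on all 8 arrays. Resp18 lay on average at the 6.6th percentile of the spots, so its averaged Mutant minus WT difference of 0.10 (CI -0.34 to 0.54) was measured near the bottom of the scale.

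Uchl1 read 3.03 and 3.91 in Mutant AECI, 4.41 and 4.48 in WT AECI, 4.76 and 3.20 in Mutant AECII and 4.42 and 4.49 in WT AECII. The WT arrays lay within 0.1 of each other in both populations and the Mutant arrays spread around or below them. The averaged Mutant minus WT difference was -0.72 (CI -1.63 to 0.18, limma, adjusted p = 0.712). Its second spot, with no accession, read 2.62 to 3.81 and gave 0.17 (CI -0.38 to 0.72, adjusted p = 0.883). The 4 other ubiquitin C-terminal hydrolases, Uchl3, Uchl4, Uchl5 and Bap1, were above the median on all arrays, and 0 of 4 passed with limma in either averaged contrast, nor at an unadjusted p under 0.05.

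With Fgfr2b signalling inhibited, 0 of the 9 genes passed in AECI, 0 in AECII and 0 with the populations averaged (limma). The background was as sparse: 0.0163% of all genes passed in AECI, 0.0122% in AECII and 0.0448% averaged. With genes on X and Y taken out of the fit, 0 genes passed in any of the 3. When the effect in AECII was subtracted from that in AECI, 0 of the 9 genes passed, against 0% (0 of 24568) over all genes. At an unadjusted p under 0.05 each of these 4 comparisons held 1 of the 9 genes: Chga in AECI, Scg5 in AECII, Scg5 averaged and Chga in the difference, against 7.64%, 4.41%, 7.6% and 4.71% of all genes. Ddc had averaged means 0.50 higher in Mutant (CI -0.03 to 1.03, adjusted p = 0.676), with both Mutant arrays above both WT arrays in each population. The second Ddc spot gave -0.08 for the same contrast (CI -1.22 to 1.05, limma over all spots, adjusted p = 0.976), and the mean of both spots gave 0.21. Calca gave -0.17 (CI -1.24 to 0.90), Chgb -0.17 (CI -1.42 to 1.09) and Pcsk1 0.16 (CI -0.44 to 0.76). Both the Calca and the Chgb interval reach past -1, so a 2-fold lower signal in Mutant lies within them. The sort markers also differed by genotype, though 0 passed (limma). In AECII, 8 of 8 AECI markers were higher in Mutant (median 1.16), 6 at an unadjusted p under 0.05, against 4.41% of all genes. In AECI, 7 of 8 AECII markers were lower in Mutant (median -0.62), 3 at that threshold, against 7.64%. Whether the make-up of the sorted populations differed between the genotypes was not tested.

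**Figure D3:**
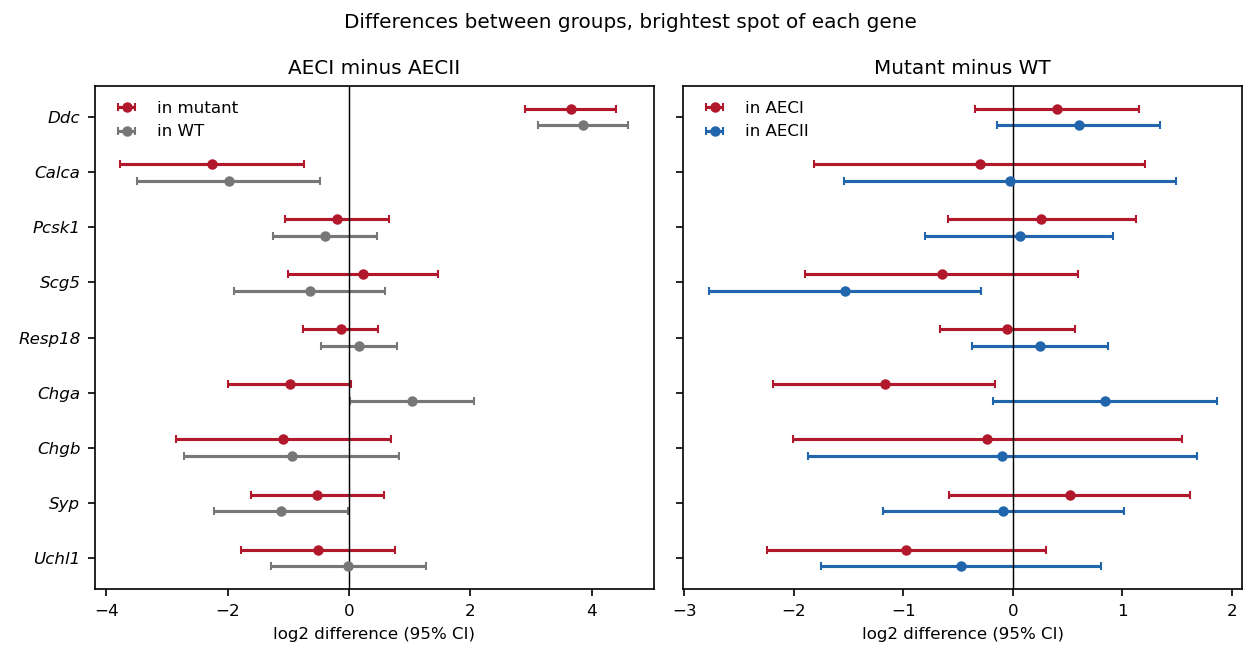
Log2 differences (horizontal axes) of the 9 genes from limma with 95% confidence intervals, for AECI minus AECII in Mutant and in WT (left) and Mutant minus WT in AECI and in AECII (right). In the left panel Ddc is at 3.66 and 3.86, and in the right panel Chga is at -1.17 in AECI and 0.84 in AECII.

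Patterns were compared by the root mean square difference of centred values over the 8 arrays. Only genes with a mean at or above the median of all genes, and without a provisional symbol, were searched. Among these, the genes most like Ddc were Agrn (0.16), Tgm2 (0.22) and Tgfb2 (0.23). The SD of Ddc itself was 2.04 on the log2 scale. Those most like Calca were Tmc8 (0.34), Mlph (0.36) and Fbxo36 (0.37), with an SD of 1.28. For Scg5 they were Tmem128 (0.24), Cisd2 (0.34) and Coa4 (0.34), with an SD of 0.79. These are descriptions over 8 arrays in 4 groups. The 3 genes next to Ddc and the 3 next to Calca share the step between AECI and AECII, for example Agrn at a mean of 12.98 in AECI and 9.44 in AECII, and Mlph at 6.89 in AECI and 9.24 in AECII.

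The 100 genes of 6 related lists were set beside the 9. In the averaged AECI minus AECII contrast 17 of the 100 passed with limma, against 5.8% of all genes called higher and 9.01% called lower, so their share lay near that of all genes. Of 14 measured genes of monoamine synthesis, storage, uptake and breakdown, 0 were higher and 4 lower in AECI (limma, averaged over genotypes), with a median of -0.37 against 0.01 over all genes, of which 5.8% were higher and 9.01% lower. Slc18a1, which loads amines into granules, read 7.96 and 5.90 in Mutant AECI, 4.58 and 6.85 in WT AECI, 9.48 and 9.23 in Mutant AECII and 10.00 and 9.52 in WT AECII. The populations did not overlap, and AECI minus AECII was -3.23 (adjusted p = 0.0145). Spr and Pts, enzymes of the tetrahydrobiopterin cofactor that amine hydroxylases use, were -1.76 (adjusted p = 0.0143) and -0.91 (0.0313), and Maob, which breaks amines down, was -0.76 (0.0329). Ddc, which was not counted in this list, was higher in AECI where these 4 were lower. The Slc18a1 call was lost without Mutant AECII replicate 1 (0.0544) or WT AECII replicate 1 (0.0554), and that of Spr without Mutant AECII replicate 2 (0.0567) or WT AECII replicate 2 (0.0583). That of Pts was kept without Mutant AECI replicate 2 and lost without any other array (0.0512 to 0.0996), and that of Maob was lost without any 1 of the 8 arrays (0.0633 to 0.112). Both were also lost with median centring (0.0551 for Pts and 0.0633 for Maob) and with the replicate block (0.058 and 0.0582). Slc18a2, the transporter of amine neurons, was 0.87 (adjusted p = 0.115) and did not pass.

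Of 28 measured genes of regulated exocytosis, 0 were higher and 4 lower in AECI (5.8% and 9.01% of all genes), with a list median of 0.20 against 0.01 over all genes. Rab3a, a GTPase of secretory vesicles, read 6.0 and 7.49 in Mutant AECI, 7.37 and 7.98 in WT AECI, 10.00 and 9.76 in Mutant AECII and 9.97 and 10.10 in WT AECII, a difference of -2.74 (limma, adjusted p = 0.00277). Rph3al, an effector of Rab3 in endocrine and exocrine secretion, was -1.95 (adjusted p = 0.00118). Syngr1, a vesicle membrane protein of the family near synaptophysin, was -1.07 (0.0203), and Cadps2, which primes dense-core vesicles, was -0.80 (0.0416). Snap25, a fusion protein of neurons, was at 10.87 to 12.39 and Cplx2, a complexin, at 14.26 to 15.04 on all 8 arrays. Whether either spot reads its named transcript alone is not known here. Rab3a and Rph3al kept their calls with any 1 array left out. Syngr1 kept its call without WT AECI replicate 2 or Mutant AECII replicate 2 and lost it without any other array (0.0504 to 0.0676). Cadps2 lost its call without any 1 of the 8 arrays (0.0571 to 0.133), with median centring (0.0759), with the replicate block (0.0603) and with the mean of all spots, which gave -0.34 (0.315). Among 15 neuronal cytoskeleton and adhesion genes, 0 were higher and 3 lower in AECI: Bex2 (-2.77, limma adjusted p = 0.000202), Bex1 (-1.32, 0.00642) and Cdh2 (-1.68, 0.031). Bex2 read 12.58 to 13.83 in AECI and 15.90 to 15.97 in AECII, next to the highest value of the table, so the size of its difference may be understated. The Cdh2 call was kept without WT AECI replicate 2 or WT AECII replicate 2 and lost without any other array (0.0561 to 0.105), with the replicate block (0.0527) and with the mean of all spots, which gave -1.01 (0.0641). Those of Bex1 and Bex2 were kept with any 1 array left out.

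Of 21 other peptide, granin and processing genes, 2 were higher in AECI (Npy, neuropeptide Y, 1.32, limma adjusted p = 0.0245, and Pcsk2, the convertase PC2 that Scg5 serves, 1.10, 0.019) and 1 was lower (Nmb, neuromedin B, -1.10, 0.0356), against 5.8% and 9.01% of all genes. Grp, the gastrin-releasing peptide of neuroendocrine cells in the human lung, ran from 2.82 to 3.69 and stayed below the median on all 8 arrays. Of the 12 transcription factors and Notch ligands, Prox1 was lower in AECI (-2.03, adjusted p = 0.00558). Npy kept its call without Mutant AECI replicate 1, WT AECI replicate 1 or Mutant AECII replicate 2 and lost it without any other array (0.0609 to 0.0822). Pcsk2 lost its call without WT AECI replicate 2 or any 1 AECII array other than WT AECII replicate 2 (0.0551 to 0.0694), and with the mean of all spots, which gave 0.57 (0.101). Nmb kept its call without WT AECI replicate 1 or Mutant AECII replicate 1 and lost it without any other array (0.068 to 0.113), with another quantile normalization (0.0524), with median centring (0.0518) and with the replicate block (0.0596). Prox1 kept its call with any 1 array left out. Of 10 receptors of the peptides, 1 was higher and 1 lower. Calcr, the calcitonin receptor, read 6.48 and 6.40 in Mutant AECI, 6.18 and 6.31 in WT AECI, 2.59 and 2.83 in Mutant AECII and 2.73 and 2.99 in WT AECII, a difference of 3.56 (adjusted p = 0.00014). Its AECII values lay below the 25th percentile of 3.3. No detection limit is known, so they may hold background, and the size of the difference may be understated. Ramp1, which turns the calcitonin receptor family towards CGRP, was -2.19 (adjusted p = 0.0166), with 4.24 to 7.51 in AECI and 7.55 to 8.76 in AECII. Calcr kept its call with any 1 array left out, and Ramp1 lost it without Mutant AECII replicate 1 (0.0628) and without WT AECII replicate 2 (0.066). In Mutant minus WT with the populations averaged, 0 of the 100 genes of these 6 lists passed with limma, against 0.0448% of all genes, and 7 had an unadjusted p under 0.05, against 7.6% of all genes. Those with the smallest were Npy (1.09, unadjusted p = 0.0072, limma adjusted p = 0.545), Prox1 (1.11, 0.00893 and 0.547), Bex2 (-0.57, 0.0111 and 0.564) and Ramp1 (1.31, 0.0194 and 0.612). With a robust prior with trend, Bex2 passed (adjusted p = 0.0306).

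**Figure D4:**
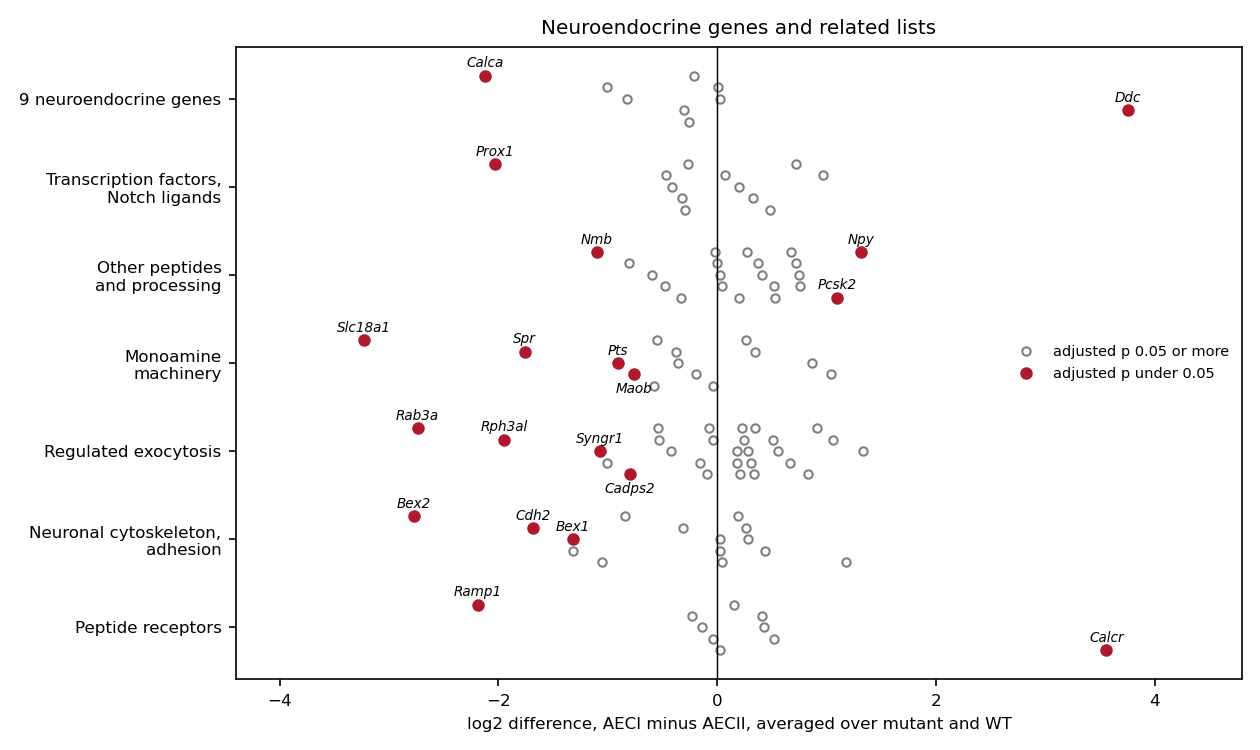
Log2 difference of AECI minus AECII, averaged over Mutant and WT (horizontal axis), for the 9 genes and 6 related lists (rows, with points spread vertically for legibility), filled where the limma adjusted p was under 0.05. Ddc at 3.76 and Calcr at 3.56 stand on the AECI side, and Slc18a1 at -3.23 and Bex2 at -2.77 on the AECII side, where the Calcr and Bex2 values may be understated.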

How the data were processed

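RNA of sorted AECI and AECII was amplified as a whole transcriptome and hybridised to 8 single-colour (Cy5) arrays, 2 per group, per the labels. Each deposited value is the log2 signal of a spot, normalized by the authors so that all arrays held the same quantiles. Their processing notes name limma without a version, and the background correction and spot filter are not stated. Quantile normalization removes differences in total RNA, and low signals cannot be separated from background, so the number of arrays sets the precision.

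Of 62976 spots, 43941 had 1 gene symbol, 0 had several and 19035 had none, and 57 named spots with a missing value were left out. Symbols were updated through RefSeq (GRCm38.p6) for 1424 spots. The brightest spot by mean stood for a gene, and no filter was applied before the main tests. The search for similar genes left out the dimmer genes and provisional symbols. The means of the 4 groups were fitted to all 8 arrays with limma 3.58.1 (R 4.3.3, eBayes, two-sided), with Benjamini-Hochberg adjustment over 24568 genes and 0.05 as threshold. Residual degrees of freedom were 4, those of the prior 2.87, and the median residual SD was 0.392. There were 7 comparisons, and all spots were also fitted singly. The fit was tested on simulated data with known changes. Tables and plots came from pandas 2.3.3 and matplotlib 3.10.9 under Python 3.11.15.

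The 9 genes and all lists were chosen with earlier results of these data known. Named were the 9 genes, up to 4 genes per list by the p of the averaged AECI minus AECII contrast and up to 2 by that of the averaged Mutant minus WT contrast, the 3 most similar genes per member, and fixed sex-linked and FGF genes. Insm1, Neurod1, Grp, Snap25, Cplx2, Hes6, Gal, Pcsk1n and Pam were named after their values were seen. The alternative settings were another quantile normalization, centring on the array median, a filter on the dimmest 25% or 50% of genes, all spots of a gene averaged, a robust prior with trend, weighted arrays, a fit to the compared arrays alone, a block for the replicate number, a fit with no X or Y genes, and each array left out in turn. In that last setting a lone array took its spread from the other groups. Protein sequences were not used here. Some listed genes were not analysed here.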

Additional observations from a re-analysis of the deposited data

Results flagged for a closer look

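Chga was singled out because its arrays moved in opposite directions in the 2 populations. Both Mutant arrays lay below both WT arrays in AECI and above both WT arrays in AECII, and so AECI lay below AECII in Mutant and above it in WT. The difference of the 2 effects was -2.02 on the log2 scale (95% CI -3.45 to -0.58, limma, unadjusted p = 0.0129), which did not pass over all genes (adjusted p = 0.999). All 8 Chga values lay below the array median. Groups of 2 arrays do not allow a test for a single outlying array.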

How the results depend on the processing

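The count of marker genes called was 0 of those tested under every alternative run for Mutant minus WT in AECI, in AECII and averaged, and for the difference of the mutant effects. For AECI minus AECII in Mutant it was 2 with only the arrays compared, by the addition of Calca (adjusted p = 0.0429), and 1 to 2 with an array left out. In WT it was 0 with the mean of all spots, by the loss of Ddc. Averaged it was 1 when the lowest 50% of genes were left out, which removed Calca from the test, and 1 to 2 with an array left out. The second spot gave Ddc -0.42 averaged and -0.89 in WT, and the mean of all spots gave Calca 0.25 for the averaged Mutant minus WT. With an array left out, averaged AECI minus AECII ran from -0.22 to 0.28 for Chga, -0.52 to 0.10 for Scg5, -0.65 to 0.13 for Uchl1 and -0.10 to 0.13 for Resp18. Averaged Mutant minus WT ran from -0.60 to 0.26 for Calca, -0.42 to 0.08 for Chga, -0.64 to 0.30 for Chgb, -0.05 to 0.48 for Syp, -0.02 to 0.34 for Pcsk1 and -0.02 to 0.22 for Resp18. The cause of these shifts was not tested.

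Over all genes, 1917 (Mutant), 1722 (WT) and 3638 (averaged) were called between AECI and AECII, and the alternatives gave 626 to 2904, 527 to 2587 and 2374 to 4689. Between Mutant and WT, 4 (AECI), 3 (AECII) and 11 (averaged) were called, and the alternatives gave 0 to 25, 0 to 11 and 0 to 27. Among the other named genes, the call was lost in 63 fits with an array left out and in 14 under the other settings, 1 was gained (Bex2, averaged Mutant minus WT, adjusted p = 0.0306 with the trended robust prior), and no direction changed.

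Replicate numbers marked no shared litter or day in the labels. Over 24568 genes, samples with the same number hardly deviated together (r from -0.0686 to 0.028). A correlation over all genes cannot exclude a shared litter, day or sort. The mesenchymal gene Col1a1 rose from replicate 1 to 2 in Mutant AECI (6.38 and 10.26) and WT AECI (4.94 and 8.57). It fell in Mutant AECII (9.29 and 7.05) and WT AECII (9.28 and 6.15). Col1a2, Col3a1, Pdgfra and Tbx4 moved the same way as Col1a1 in every group. Col3a1, for example, read 5.53 and 9.45 in Mutant AECI and 4.49 and 7.68 in WT AECI. In AECII it read 9.04 and 4.06 in Mutant and 9.17 and 5.45 in WT. The other mesenchymal genes listed, Dcn and Pdgfrb, did not move alike in the AECI groups. Whether replicates share a litter or day was not tested. With the replicate block, 2 of the 9 genes passed in the averaged AECI minus AECII contrast, 1 in Mutant, 1 in WT and 0 in the others, as without it, while 3077 genes were called in that averaged contrast and 4 between Mutant and WT averaged.

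With 2 arrays per group and no detection limits, the 7 dimmer genes allow no statement of absence or of small changes.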

Other observations

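Several genes of the regulated secretory pathway lay above the array median in both populations without a difference that passed. Of the 21 other peptide, granin and processing genes, 5 lay above the array median on all 8 arrays and 7 lay below it on all 8. Pam, which amidates peptides in the granule, ran from 9.95 to 10.88 on the 8 arrays, Pcsk1n (proSAAS), the inhibitor of PC1/3, from 9.72 to 10.34, and Gal (galanin) from 7.49 to 7.98. Hes6, a factor linked to neural and neuroendocrine differentiation, ran from 8.61 to 9.24. Beside these, Iapp (2.37 to 2.74), Vip (2.32 to 3.32), Sst (2.69 to 3.72) and Calcb (2.44 to 3.58), which are peptide hormone genes named after their values were seen, stayed below the array median of 5.01 on all 8 arrays.

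Prph, the neuronal intermediate filament peripherin, was lower in Mutant on every array of both populations: 3.40 and 3.13 in Mutant AECI, 4.79 and 5.94 in WT AECI, 2.91 and 3.70 in Mutant AECII and 4.95 and 5.16 in WT AECII. The averaged difference was -1.92 (limma, unadjusted p = 0.000556, adjusted p = 0.387), so it did not pass over all genes.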
